A study of Homo sapiens with 15 samples.

Results

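MDA-MB-231, a mesenchymal line from a human breast tumour that lacks hormone receptors and carries mutant p53, was treated for 24 h with HIPP and compared with untreated cells on 5 of the 15 two-colour whole human genome arrays of the series. HIPP is an oxime of phenylpyruvate that was used as an inhibitor of CtBP2. On each of these arrays the RNA of HIPP-treated cells carried Cy5 and the RNA of untreated MDA-MB-231 cells carried Cy3. The other arrays held 5 hybridisations of cells treated for 24 h with P4, the hydrazone analogue of HIPP, and 5 of shCtBP2 cells, in which CtBP2 was silenced by stable RNA interference, in all cases against MDA-MB-231 cells labelled as untreated, although the study's text names scrambled control cells as the comparison for shCtBP2. The HIPP arrays were chosen by their treatment label, replicates 1 to 5. The labels call them biological replicates, give no dose, and do not say whether the control extract was shared between arrays, so the spread between arrays may leave out that between control cultures. No array had the dyes swapped, so a dye effect of a gene and the effect of HIPP cannot be told apart within the 5 arrays.

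CtBP1 and CtBP2 are corepressors that bind NAD(H) and hold histone deacetylases, methyltransferases and demethylases at the promoters of genes that sequence-specific repressors have bound. They are best known in epithelial tumours for repressing CDH1 (E-cadherin) and genes of growth arrest and cell death. Small molecules shaped like their substrate occupy the dehydrogenase fold. The pathways described here include the integrated stress response, in which phosphorylation of the translation factor eIF2 lowers overall protein synthesis while the transcription factor ATF4 is made and switches on genes for amino acid supply and for feedback on the response itself.

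Each array carried 43376 gene spots and 41000 gene probes, which gave 30988 genes or unnamed transcripts, 17523 of them with a current gene symbol. Feature Extraction marked 68.1 to 73.5% of the gene spots of a HIPP array as well above background in both channels, and 0 spots were saturated. Every ratio is the log2 of the Cy5 over the Cy3 processed signal, so a positive value means more signal from HIPP-treated cells. A gene is termed bright where at least 1 of its probes was well above background in both channels on all 5 HIPP arrays, and 19699 genes were bright. A gene is termed called where limma, fitted over all 15 arrays, gave an adjusted p under 0.05 and the fold change was at least 2.5, the threshold that the study's methods set for HIPP. "Rose" and "fell" are used of called genes only.

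Replicates 1 to 3 lay on 1 slide (slide 2) and replicates 4 and 5 on another (slide 3). Over the bright genes, the log2 ratios of any 2 HIPP arrays correlated at 0.50 to 0.89, and the lowest value was that of replicates 1 and 4. The 5 arrays therefore held a common pattern and a visible difference between slides.

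With HIPP, 647 of the 16774 bright genes tested rose (3.86%) and 615 fell (3.67%). Over all 27579 genes tested, 946 rose (3.43%) and 997 fell (3.62%). The changes were broad: without the fold threshold, 62.4% of the bright genes tested had an adjusted p under 0.05, so the fold threshold sets most of the calls. Of the bright called genes, 1254 had the same sign on all 5 arrays and 0 had opposite mean signs on the 2 slides. Only 43.6% of the bright genes that rose and 51.4% of those that fell carried a current symbol, against 62.7% of all bright genes tested, so a large part of the response lay in transcripts that are not named here. The even split between higher and lower depended on background subtraction and on the scaling of the 2 dyes. Before any dye normalisation the median log2 ratio of an array lay between -0.62 and -0.12. When the mean signals were used without normalisation or centring, the median of the bright genes moved to -0.48 and 2.53% of all calls were higher. With the same signals centred on each array's median the share was 25.1%. It was 44.9% with background-subtracted signals centred in that way, and 48.7% with the processed signals. All directions below are therefore relative to the bulk of the genes on an array. Against the shCtBP2 arrays, a contrast that removes a dye effect common to all arrays but also takes off any effect of the silencing, 524 bright genes were called higher and 615 lower, and 780 of the 1262 bright calls stayed called in the same direction.

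**Figure D1:**
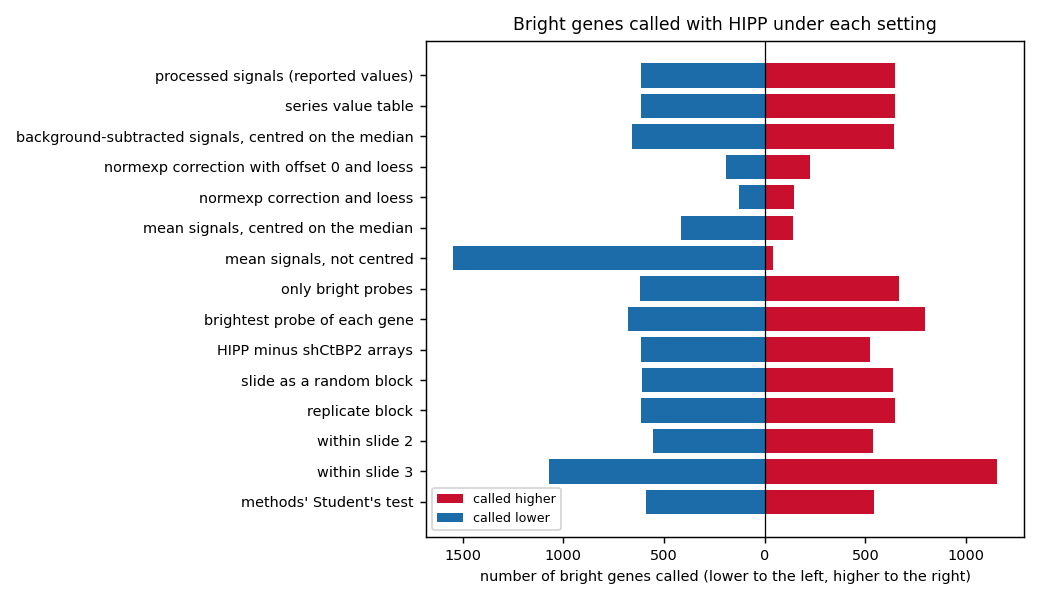
Number of bright genes called higher (red, to the right) and lower (blue, to the left) with HIPP under each processing setting. The processed signals gave 647 higher and 615 lower, normexp correction with loess gave 147 and 127, and mean signals without centring gave 40 and 1546.

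Among the bright called genes with a current symbol, the 3 furthest above 0 by mean were CABP7, GDF15 and HMOX1. GDF15, a secreted cytokine of the TGF-beta superfamily that marks cell stress, had log2 ratios of 4.58, 5.22, 5.28, 4.39 and 3.85 on replicates 1 to 5, a mean of 4.66 ± 0.60 (SD, n = 5) or 25.3-fold (limma adjusted p = 2.79e-09). HMOX1, the inducible heme oxygenase, had 3.86, 4.36, 4.31, 3.58 and 4.43, a mean of 4.11 ± 0.37 (17.2-fold, adjusted p = 2.38e-10). Both were high on every array. GDF15 was lower on both arrays of slide 3 (mean 4.12) than on the 3 of slide 2 (mean 5.03), whereas the slides overlapped for HMOX1. By the array's own annotation (human genome build hg17), the probe of GDF15 lay at chr19:18360890-18360949 and that of HMOX1 at chr22:34114676-34114735. CABP7, a calcium-binding protein of the calmodulin family, had the highest mean, 4.84 ± 1.59, but its values of 3.54, 5.08, 2.89, 6.16 and 6.53 lay higher on slide 3 (mean 6.34) than on slide 2 (mean 3.84). VPS18, a subunit of the complexes that tether vesicles to late endosomes and lysosomes, behaved in the same way, with 2.42 on slide 2 and 4.86 on slide 3.

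FBXW10 and FBXW10B, near-identical copies of an F-box protein gene whose transcripts the probes may not separate, had mean log2 ratios of 3.61 ± 0.14 and 3.80 ± 0.65. The small heat shock protein HSPB8 had 3.09 ± 0.72 (3.56 on slide 2 and 2.37 on slide 3), EID3, a subunit of the SMC5/6 complex, had 3.06 ± 0.60, the monocarboxylate transporter family member SLC16A14 had 3.04 ± 0.95 and the kinase WNK4 had 2.95 ± 0.42. All of these were called and lay above 0 on 5 of 5 arrays, but with normexp background correction and loess in place of the processed signals HSPB8 (1.02) and WNK4 (1.23) lay under the fold threshold. Under that correction FBXW10 (1.86), FBXW10B (1.67), EID3 (1.51) and SLC16A14 (1.73) also lay over 1.5 times nearer to 0, and stayed called. SLC16A14 was lowest on replicate 4, where it reached 1.43 against 3.04 to 3.83 on the other arrays.

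COL13A1, a transmembrane collagen, had the lowest mean of all named bright genes, -2.98 ± 0.84, with values of -3.66, -3.07, -3.40, -1.52 and -3.23. CEMIP, which takes part in hyaluronan breakdown, had -2.90 ± 0.21 (adjusted p = 4.24e-10), but its 3 probes lay between -3.92 and -1.13. CCN2 (connective tissue growth factor) had -2.50, -3.47, -2.23, -2.86 and -2.93, a mean of -2.80 ± 0.47 or 7.0-fold lower (adjusted p = 4.81e-08).

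The tetraspanin TSPAN2, the cullin CUL3, the coagulation factor subunit F13A1, the caveolar protein CAVIN2, the glutamate transporter SLC1A3, SLC35F3 and FAM81A completed the 10 lowest, with means from -2.60 to -2.78. CUL3 forms the ubiquitin ligase that, with KEAP1, degrades the transcription factor NRF2. Its ratios of -2.49, -3.20, -2.67, -2.51 and -2.84 were close to each other, but only 1 of its 2 probes was bright and with normexp correction and loess its mean was -1.10, under the fold threshold. TSPAN2 and SLC1A3 likewise had 1 bright probe of 2 and lost the call under that correction, with means of -0.71 and -0.75. SLC1A3, SLC35F3, FAM81A and COL13A1 were nearest to 0 on replicate 4, and SLC1A3 had -3.08 on slide 2 and -1.88 on slide 3.

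**Figure D2:**
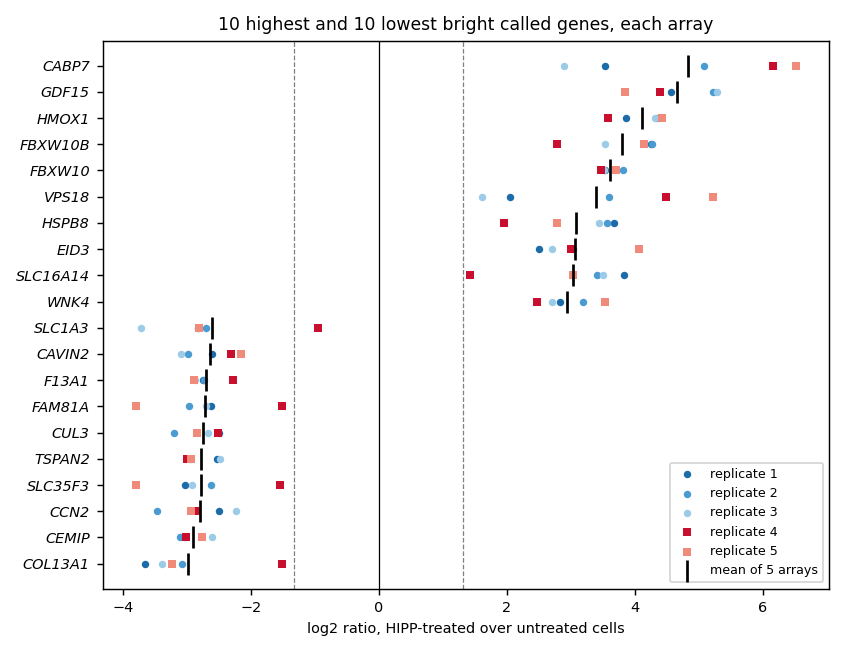
Log2 ratio of HIPP-treated over untreated cells on each array (circles for slide 2, squares for slide 3) with the mean of 5 arrays (black bar) for the 10 highest and 10 lowest bright called genes with a current symbol. Dashed lines mark the 2.5-fold threshold. CABP7 and VPS18 were higher on both arrays of slide 3 than on the 3 arrays of slide 2, GDF15 was lower on them, and the slides overlapped for HMOX1.

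Gene lists were next compared with all bright genes, whose median log2 ratio was 0.02. For each list, called genes are counted over its bright members tested, and medians are taken over all its bright members. The counts stand beside the 3.86% that rose and 3.67% that fell among all bright genes tested. Among the 10509 of these with a current symbol, as all list members have, the shares were 2.68% and 3.01%. The lists were chosen with earlier results of these data known, so these shares give a scale and are no independent test. The highest medians were those of the integrated stress response regulators (1.14), the metallothionein and zinc list (1.01) and cholesterol synthesis (0.63). The lowest were those of the G2 and M phase genes (-0.74), the tricarboxylic acid cycle (-0.57) and TGF-beta signalling (-0.52).

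**Figure D3:**
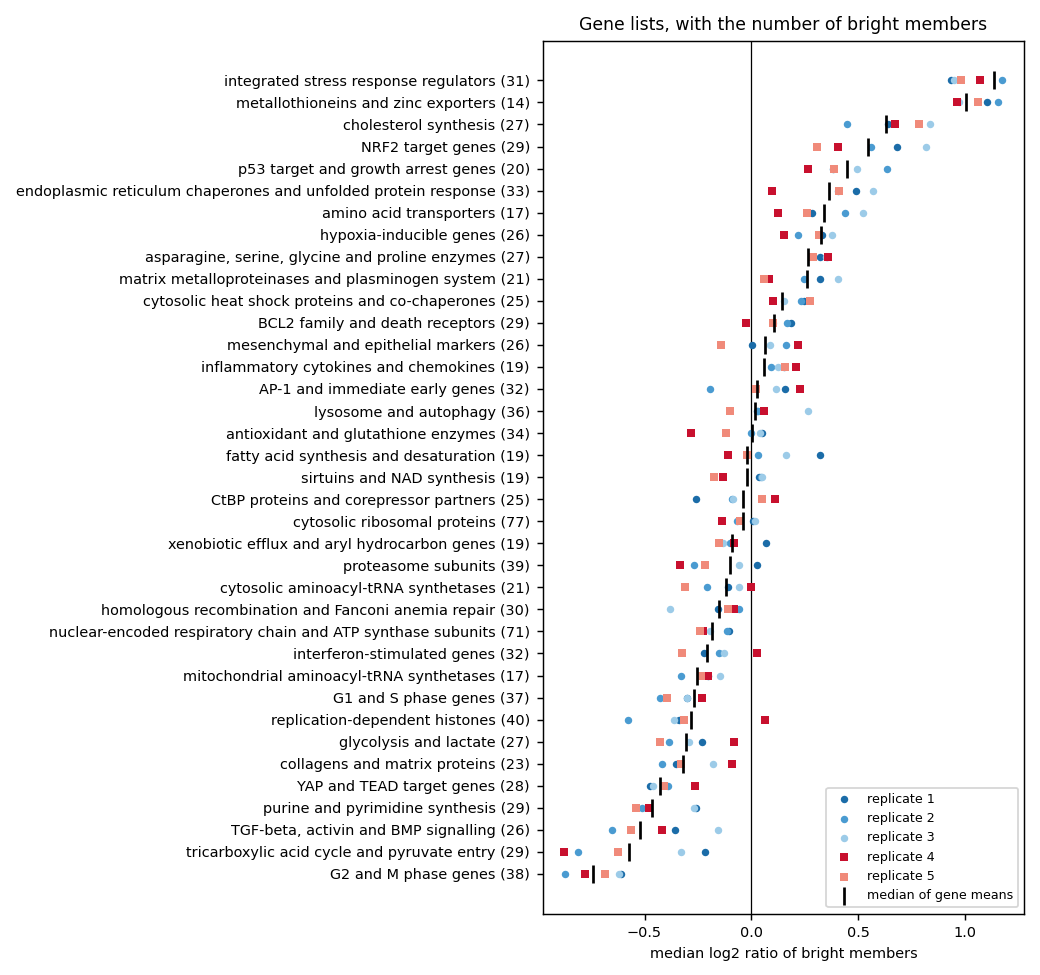
Median log2 ratio of the bright members of each gene list on each array (circles for slide 2, squares for slide 3), with the median of the gene means as a black bar and the number of bright members in parentheses. The stress response and metallothionein lists lay between 0.94 and 1.18 on all 5 arrays, and the G2 and M phase list lay between -0.87 and -0.61.

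The integrated stress response list had the highest median. Of 31 bright members tested, 12 rose and 0 fell, and a further 7 lay above and 7 below 0 at an adjusted p under 0.05. The genes that rose were GDF15, NUPR1, PPP1R15A, ATF3, VEGFA, SESN2, DDIT4, ATF4, CEBPG, VLDLR, CHAC1 and TRIB3. ATF4, the transcription factor at the centre of the response, had log2 ratios of 1.34, 1.79, 1.61, 1.68 and 1.56, a mean of 1.60 ± 0.17 or 3.03-fold (adjusted p = 4.88e-08). The stress-induced chromatin protein NUPR1 had 2.81, 3.06, 2.98, 2.69 and 2.94, a mean of 2.90 ± 0.15. For both genes the arrays of the 2 slides lay within the same narrow range. The 2 probes of ATF4, however, had means of 1.09 and 2.11, and its call was lost under 2 of 21 other settings. PPP1R15A (GADD34), which guides the phosphatase that removes phosphate from eIF2, reached 2.28 ± 0.35, and ATF3, a repressor and activator induced by ATF4, reached 2.20 ± 0.57.

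DDIT3 (CHOP), the death-linked factor of the same response, had 2.07, 1.52, 1.80, 0.17 and 0.98. Its mean of 1.31 ± 0.75 lay just under the fold threshold although its adjusted p was 6.28e-04, and without replicate 4 it was called, with a mean of 1.59. Of the translation factors of the list, EIF2S1, the phosphorylated subunit of eIF2, had -0.94 ± 0.44 and EIF2B2, a subunit of its exchange factor, had -1.01, and neither was called.

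The start regions of 28 genes of this list were found in the RefSeq promoter table (GRCh38.p14), and the 250 bases before the start were searched on both strands for TGATGNAA, the core of the C/EBP-ATF element to which ATF4 binds. At least 1 start of 6 of the 28 genes held it, against 3.89% of all 27305 genes in the table. Among the called bright genes with an entry, 3 of 10 held it, namely ATF3, CEBPG and CHAC1. They are shown because they held it, and all 3 lay above 0 on every array. CEBPG encodes a partner of ATF4 and CHAC1 degrades glutathione. Capitals mark the match, on either strand, which began 191, 42 and 209 bases before the start.
ATF3, chr1:212565157-212565406, plus strand: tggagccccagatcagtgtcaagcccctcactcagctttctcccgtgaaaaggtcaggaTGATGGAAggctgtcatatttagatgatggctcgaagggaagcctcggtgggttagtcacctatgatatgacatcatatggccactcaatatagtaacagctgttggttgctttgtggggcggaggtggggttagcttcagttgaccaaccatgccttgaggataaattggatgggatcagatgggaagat
CEBPG, chr19:33373863-33374112, plus strand: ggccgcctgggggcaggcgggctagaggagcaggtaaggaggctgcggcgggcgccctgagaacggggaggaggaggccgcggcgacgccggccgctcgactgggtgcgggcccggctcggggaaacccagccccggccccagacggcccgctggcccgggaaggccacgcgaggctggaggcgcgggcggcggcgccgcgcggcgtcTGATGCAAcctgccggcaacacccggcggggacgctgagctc
CHAC1, chr15:40953221-40953470, plus strand: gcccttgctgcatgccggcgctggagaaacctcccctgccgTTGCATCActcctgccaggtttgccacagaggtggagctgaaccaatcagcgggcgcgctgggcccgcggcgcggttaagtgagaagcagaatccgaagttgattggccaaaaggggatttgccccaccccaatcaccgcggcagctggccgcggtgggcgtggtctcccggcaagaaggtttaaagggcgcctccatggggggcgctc
The match in ATF3 is to the letters only, and ATF3 and CEBPG had 2 starts each in the table, of which the one with the match is shown. Log2 ratios of these genes were 2.97, 2.10, 2.39, 1.39 and 2.16 for ATF3, 1.63, 1.71, 1.64, 1.19 and 1.38 for CEBPG, and 1.46, 1.85, 1.72, 1.47 and 0.97 for CHAC1.

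Genes of amino acid supply rose in part. Of the enzymes of asparagine, serine, glycine and proline synthesis, 3 of 19 tested rose and 0 fell, and the list median was 0.27. ALDH1L2, a mitochondrial folate enzyme, had 2.06 ± 0.39, CTH, which makes cysteine from cystathionine, had 1.98, 2.14, 2.21, 1.78 and 1.89 (mean 2.00 ± 0.18), and ASNS, the asparagine synthetase, had 1.51 ± 0.28. The 2 probes of ASNS disagreed, with means of 0.12 and 2.91, and those of ALDH1L2 had 0.68 and 3.43. Only the lower probe of ALDH1L2 was bright, so its call rested on the dim probe. With normexp and loess its mean was 0.38, and the call was lost under 7 of 21 other settings. In the contrast with the shCtBP2 arrays, ASNS (1.19), CTH (1.02) and ALDH1L2 (0.72) kept their direction but fell short of the fold threshold.

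Among amino acid transporters, 3 of 16 tested rose and 2 fell. SLC43A2, a carrier of large neutral amino acids, had 1.57 ± 0.16, SLC1A4 had 1.45 ± 0.76 and SLC3A2, the heavy chain of several exchangers, had 1.37 ± 0.19. The 2 probes of SLC43A2 had means of 0.90 and 2.24. SLC7A11, the cystine carrier that pairs with SLC3A2, was not called at 0.82 ± 0.63, with 1.5, 0.80, 1.35, -0.01 and 0.44 on the 5 arrays and probe means from -0.29 to 2.01. The glutamate carriers SLC1A3 and SLC1A1 (-1.38 ± 0.48) were the members that fell.

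Among the enzymes that load amino acids onto transfer RNA, WARS1, the tryptophanyl-tRNA synthetase, rose by 1.56 ± 0.30 (2.95-fold), and it was the only one of 18 tested cytosolic synthetases to be called. The list median was -0.12, and AARS1 (0.99) and IARS1 (-1.06) marked the range of the members that were not called. That median was -0.19 without replicate 4 and 0.08 in the contrast with the shCtBP2 arrays. Of the 12 mitochondrial synthetases tested, 0 were called in either direction, and 12 had a limma adjusted p under 0.05 without the fold threshold, 4 of them above 0 and 8 below.

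**Figure D4:**
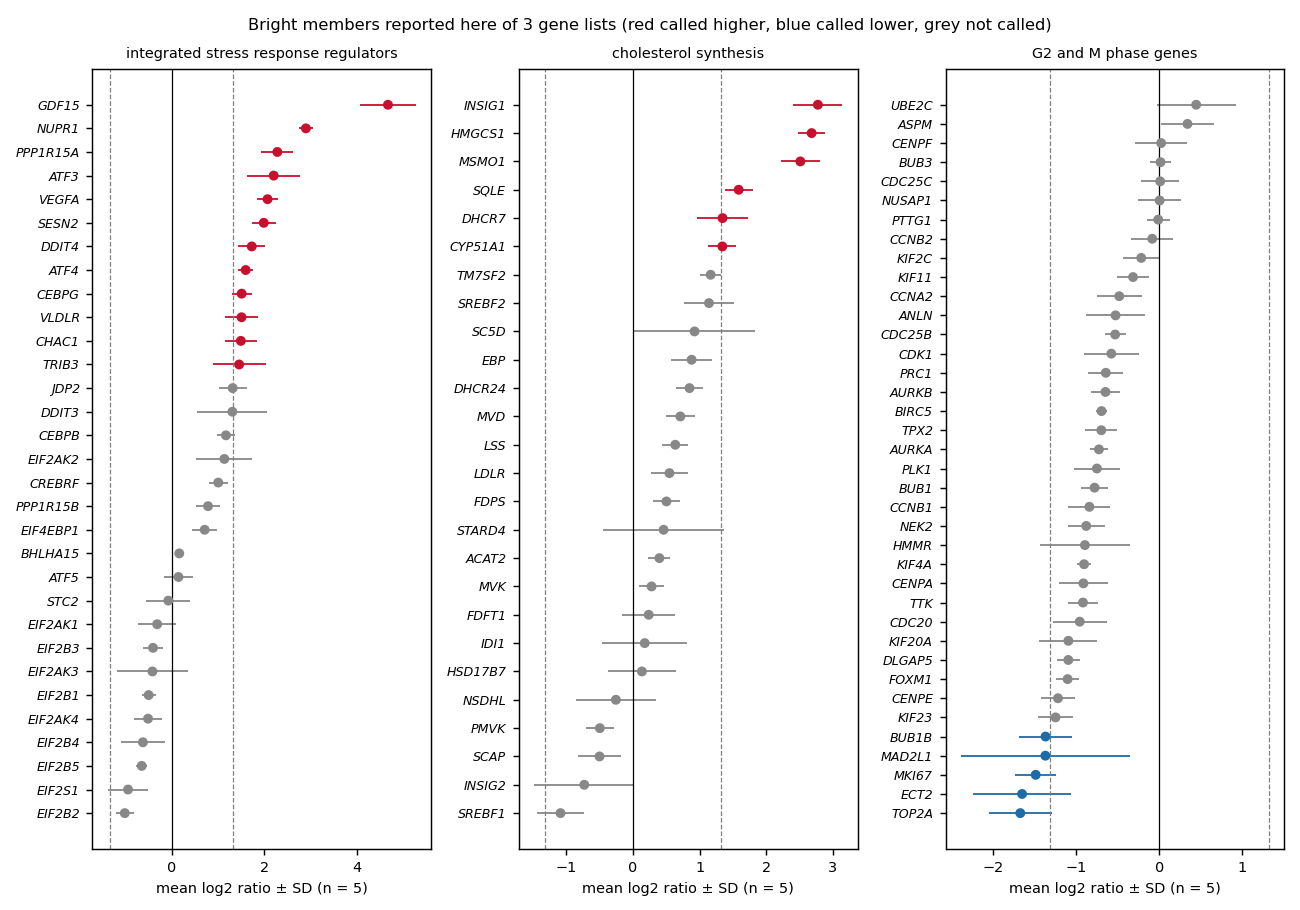
Mean log2 ratio ± SD over 5 arrays of the bright members reported here of the integrated stress response, cholesterol synthesis and G2 and M phase lists (red called higher, blue called lower, grey not called; dashed lines, 2.5-fold). The stress response and cholesterol lists held 12 and 6 genes called higher and 0 called lower, and the G2 and M phase list held 0 and 5.

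Other genes of protein stress were counted next. Of 25 endoplasmic reticulum chaperone and unfolded protein response genes tested, DNAJB2 alone rose (1.57 ± 0.54, and 0.62 on replicate 4), with probe means of 0.95 and 2.19. HSPA5 (BiP), the main chaperone of this compartment, stood at -0.19 ± 0.28, and XBP1, the transcription factor activated by IRE1, at 0.36 ± 0.70, with 0.83 on slide 2 and -0.34 on slide 3. The list median was nevertheless 0.36, with 14 further members above 0 at an adjusted p under 0.05 and 0 below. Of 22 cytosolic heat shock genes tested, HSPB8, HSPA1A and HSPA6 rose and 0 fell. HSPA1A, an inducible HSP70, had 1.74, 2.10, 1.52, 0.69 and 1.21 (mean 1.45 ± 0.53), with probe means from 0.51 to 1.94. The constitutive HSPA8 had a mean of -1.04 and was not called.

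Among the targets of NRF2, the transcription factor of the oxidant response, HMOX1 and the exporter ABCC3 (1.33 ± 0.48) were the 2 of 24 tested that rose, and 0 fell. A further 17 lay above and 4 below 0 with an adjusted p under 0.05 and the list median was 0.55. The thioredoxin reductase TXNRD1 (0.83 ± 0.70), the glutathione synthesis subunit GCLM (0.76 ± 0.36) and the sulfiredoxin SRXN1 (0.93 ± 0.22) were among the 17. NQO1, a quinone reductase often used as a readout of NRF2, went the other way, with -0.27, -0.57, -0.31, -0.71 and -1.29 (mean -0.63 ± 0.41, not called), and NFE2L2, which encodes NRF2 itself, had -0.94 ± 0.45. Among antioxidant and glutathione enzymes, only TXNIP, the inhibitor of thioredoxin, was called of 27 tested (1.65 ± 0.81, and 0.26 on replicate 4), and the list median was 0.0042. The antioxidant element TGANNNNGC was held by 14 of 22 genes of the NRF2 list with an entry in the promoter table, against 40.3% of all genes, and neither called gene had an entry.

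Metallothioneins, small cysteine-rich proteins that bind zinc, copper and cadmium, lay higher, and so did their regulator. Of 13 tested members of the metal list, MTF1, MT2A and MT1B rose and SLC39A10 fell, and 13 of 14 bright members lay above 0. MTF1, the zinc-sensing transcription factor of these genes, had 1.82, 2.37, 1.85, 2.08 and 2.26 (mean 2.07 ± 0.25, 4.21-fold). MT2A had 1.27, 1.43, 1.30, 1.55 and 1.57 (mean 1.43 ± 0.14), and MT1B had 1.39 ± 0.16. SLC39A10, a zinc importer of the plasma membrane, had -1.91, -2.70, -1.22, -2.63 and -2.57 (mean -2.21 ± 0.64). The metallothioneins are near-identical in sequence, so the probes of MT1 genes and MT2A may read each other.

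The promoters of the called metallothioneins are shown with matches to a loose form of the metal response element, to which MTF1 binds. The core was searched as TGCNCNC on both strands of the 250 bases before the start, and capitals mark each match.
MT2A, chr16:56608334-56608583, plus strand: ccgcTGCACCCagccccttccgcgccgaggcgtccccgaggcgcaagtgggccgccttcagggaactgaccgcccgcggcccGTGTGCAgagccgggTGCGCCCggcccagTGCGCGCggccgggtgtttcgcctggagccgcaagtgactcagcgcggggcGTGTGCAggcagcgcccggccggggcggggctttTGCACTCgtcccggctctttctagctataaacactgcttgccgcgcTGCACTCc
MT1B, chr16:56651636-56651885, plus strand: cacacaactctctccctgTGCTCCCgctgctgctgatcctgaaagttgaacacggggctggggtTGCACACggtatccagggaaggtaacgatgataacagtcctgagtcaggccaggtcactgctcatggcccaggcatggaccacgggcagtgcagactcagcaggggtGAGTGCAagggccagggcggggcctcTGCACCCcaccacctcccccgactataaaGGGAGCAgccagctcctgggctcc
MT2A held 7 matches and MT1B held 5. They are matches to the letters only, and binding of MTF1 to them was not tested. The core is short and loose, and 53% of all genes in the table held at least 1, as did 7 of the 9 genes of the list with an entry. MTF1 and SLC39A10 had an entry and held 0.

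Cholesterol synthesis was the metabolic pathway with the most genes that rose, 6 of 25 tested, with 0 that fell and a list median of 0.63. HMGCS1, which makes the precursor of mevalonate, had 2.55, 2.81, 2.85, 2.39 and 2.81 (mean 2.68 ± 0.20, 6.41-fold, adjusted p = 4.01e-09). INSIG1, which holds the sterol-sensing complex in the endoplasmic reticulum, had 2.77 ± 0.37, the demethylase complex member MSMO1 had 2.51 ± 0.29, and SQLE, DHCR7 and CYP51A1 had 1.34 to 1.59. The arrays of HMGCS1 did not separate by slide.

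Of the regulators, SREBF2, the sterol-responsive transcription factor, had 1.14 ± 0.38 and SREBF1, its relative for fatty acid genes, had -1.09. In fatty acid synthesis, 0 of 14 members tested were called by limma at the fold threshold, with 7 above and 5 below 0 at an adjusted p under 0.05, FASN, the fatty acid synthase, had -0.75 ± 0.45, and the list median was -0.02. The sterol regulatory element, searched as TCACNCCAC, was held by 1 of 21 genes of the cholesterol list against 1.09% of all genes, and by 0 of the 5 called members with an entry.

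Of 22 tested genes of the tricarboxylic acid cycle, IDH3G, a regulatory subunit of isocitrate dehydrogenase, fell (-1.43 ± 0.49, and -0.58 on replicate 4) and 0 rose. A further 17 lay below and 2 above 0 with an adjusted p under 0.05, and the list median of -0.57 ranged from -0.87 to -0.22 over the arrays. SDHB, a subunit of succinate dehydrogenase, ran from -0.19 on replicate 1 to -2.23 on replicate 4 (mean -1.21 ± 0.77). Of 58 respiratory chain genes tested, 2 fell, both of ATP synthase: ATP5MC3 (-1.60 ± 0.26, with probe means of -2.66 and -0.54) and ATP5F1A (-1.56 ± 0.64). A further 23 lay below and 8 above 0 at an adjusted p under 0.05, and the list median was -0.18.

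In glycolysis, 0 of 24 genes tested were called in either direction at the fold threshold and 13 lay below 0 at an adjusted p under 0.05, 6 above. LDHA, which makes lactate from pyruvate, had -0.76, -1.23, -0.93, -1.38 and -1.04 (mean -1.07 ± 0.25, 2.10-fold lower, adjusted p = 1.06e-06), and ENO1 had -1.11 ± 0.22, whereas HK2, the inducible hexokinase, had 1.18 ± 0.45. Purine and pyrimidine synthesis held 1 called gene of 25 tested, ADSL, the adenylosuccinate lyase, at -1.63 ± 0.73, and a median of -0.47, which was -0.21 in the contrast with the shCtBP2 arrays. ADSL and ATP5F1A were nearest to 0 on replicates 1 and 3. Among sirtuin and NAD genes, NMNAT3, a mitochondrial NAD-making enzyme, fell (-1.82 ± 0.19, but -0.51 with normexp and loess, and the call was lost under 4 of 21 other settings) and SIRT1 stood at 0.02 ± 0.27.

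Of 29 lysosome and autophagy genes tested, GABARAPL1 (2.44 ± 0.68, and 1.25 on replicate 4) and MAP1LC3B (1.35 ± 0.41) were called, both of them ATG8 proteins that coat autophagosomes, and 0 fell. The probes of MAP1LC3B had means from 0.91 to 1.92, and its call was lost under 10 of 21 other settings. SQSTM1, a cargo receptor, had 0.52 ± 0.21 and was not called. Of 27 proteasome genes tested, 0 were called by limma at the fold threshold, 5 lay above and 15 below 0 at an adjusted p under 0.05, 27 of 39 bright members lay below 0 and the median was -0.10. The ribosomal proteins, tested as a large set of abundant transcripts, centred on -0.04 over 77 bright members, and RPL15 alone fell (-1.32 ± 0.10), with probe means of -2.22 and -0.42.

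Genes of cell division lay mostly below 0. Of 36 tested G2 and M phase genes, 5 fell and 0 rose, and 32 of 38 bright members lay below 0. The list median of -0.74 was -0.47 in the contrast with the shCtBP2 arrays. TOP2A, the topoisomerase that untangles replicated DNA, had -1.04, -1.86, -1.63, -2.02 and -1.83 (mean -1.68 ± 0.38, 3.19-fold lower, adjusted p = 2.08e-07). ECT2, the exchange factor of cytokinesis, had -1.65 ± 0.59, the proliferation marker MKI67 had -1.49 ± 0.25, and the spindle checkpoint genes BUB1B and MAD2L1 had -1.37 ± 0.32 and -1.37 ± 1.02. MAD2L1 ranged from -0.52 on replicate 3 to -3.01 on replicate 4. CCNB1 (cyclin B1) had -0.84 ± 0.25 and was not called.

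Of 29 G1 and S phase genes tested, 1 rose and 2 fell. CDKN2C, an inhibitor of CDK4 and CDK6, fell to -1.77 ± 0.08, with all arrays between -1.87 and -1.65, and the polymerase subunit POLE2 fell to -1.49 ± 0.56. CDKN1A (p21), the inhibitor that p53 and other factors induce, was the gene that rose, with 1.55, 1.21, 1.54, 1.03 and 1.29. Its mean of 1.32 ± 0.22 lay at the fold threshold and lost the call under 11 of 21 other settings. CCND1 (cyclin D1) stood at 0.44 ± 0.45 and at 1.24 on replicate 4. The replication-dependent histone H2BC12 fell (-1.82 ± 0.42), the only call of 27 histones tested. A further 15 histones lay below and 0 above 0 at an adjusted p under 0.05, 34 of 40 bright members lay below 0, and the list median was -0.28. That median was 0.06 on replicate 4, -0.45 without it, -0.11 within slide 3 and -0.47 in the contrast with the shCtBP2 arrays. Of the recombination and Fanconi anemia genes, 0 of 26 tested were called by limma at the fold threshold (4 above and 11 below 0 at an adjusted p under 0.05), with BRCA1 at 0.11 ± 0.15.

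Growth arrest and death genes rose in part. In the p53 target list, which shares CDKN1A with the list above, 3 of 19 tested rose and 0 fell. GADD45G had 1.89, 1.94, 1.71, 1.36 and 1.73 (mean 1.73 ± 0.23) and GADD45A had 1.98, 1.96, 1.62, 0.27 and 1.96 (mean 1.56 ± 0.74). Both act in stress-induced arrest. In the BCL2 and death receptor list, 2 of 24 tested rose, the TRAIL receptors TNFRSF10D (1.64 ± 0.64, with 2.05 on slide 2 and 1.04 on slide 3) and TNFRSF10A (1.36 ± 0.31), of which TNFRSF10D is a decoy. BBC3 (PUMA), a BH3-only killer protein, stood at 0.68 ± 0.33 (probe means from -0.13 to 1.27) and was not called. BCL2L1, a survival protein, had -1.24 ± 0.38.

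Of 28 AP-1 and immediate early genes tested, JUND rose (1.40 ± 0.38) and DUSP6 (-1.33 ± 0.49) and FOS fell. FOS had -0.55, -3.36, -1.18, -2.27 and -0.38, a mean of -1.55 ± 1.26 whose adjusted p of 0.048 lost the call under 13 of 21 other settings. Of 16 cytokine and chemokine genes tested, the neutrophil chemokines CXCL3 (2.06 ± 0.82, with 2.63 on slide 2 and 1.19 on slide 3) and CXCL2 (1.52 ± 0.62) and the adhesion receptor ICAM1 (1.78 ± 0.24) rose and 0 fell. IL6 had 0.44, -0.03, 0.03, -1.05 and -0.49 and was not called.

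Of 24 interferon-stimulated genes tested, IFIT1 (-1.98, -1.90, -2.23, -1.94 and -2.16, mean -2.04 ± 0.15) and IFIT3 (-1.52 ± 0.30) fell and 0 rose, whereas ISG15 stood at 0.06 ± 0.20. Of 21 hypoxia-inducible genes tested, 4 rose and 0 fell. ANGPTL4, a secreted lipase inhibitor, had 2.66 ± 0.65, the collagen cross-linking enzyme LOX had 2.29 ± 0.41, VEGFA had 1.84, 2.18, 2.05, 2.41 and 1.87 (mean 2.07 ± 0.23), and ADM had 1.59 ± 0.70. VEGFA was also counted in the stress list, and its 4 probes had means from 1.29 to 3.39. HIF1A (-0.53 ± 0.29) and SLC2A1 (-0.64 ± 0.08), a glucose transporter induced in hypoxia, lay below 0.

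Of 23 tested targets of YAP and TEAD, the growth-linked factors of the Hippo pathway, CCN2 and ANKRD1 (-1.93, -1.96, -2.12, -1.95 and -2.57, mean -2.11 ± 0.27) fell and 0 rose, and 20 of 28 bright members lay below 0. Their median was -0.43, but -0.18 in the contrast with the shCtBP2 arrays and -0.20 with normexp and loess. CCN1, another secreted target, had -1.19 ± 0.30. In the contrast with the shCtBP2 arrays, where ANKRD1 also lay low (-1.35 ± 0.37), its value was -0.76.

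In the TGF-beta, activin and BMP list, 1 of 24 tested rose and 3 fell. INHBA, which encodes the subunit of activin A, rose (1.89 ± 0.38), while INHBB, the subunit of activin B, had -1.88 ± 0.55, the coreceptor TGFBR3 had -1.72 ± 0.63 and the shared signal carrier SMAD4 had -1.57 ± 0.85. SMAD4 had -0.64 and -0.67 on replicates 1 and 3 and between -2.47 and -2.01 on the other arrays. INHBB was much lower still on the shCtBP2 arrays (-4.01), so that its sign turned in the contrast with them (2.13). The median of the list went from -0.52 to -0.01 in that contrast, and to -0.29 with normexp and loess.

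Several matrix genes were among those that fell. Of 18 collagens and matrix proteins tested, COL13A1, LAMA4 (-2.18 ± 0.33) and COL8A1 (-1.5 ± 0.55) fell and 0 rose. LAMA4 also lay low on the shCtBP2 arrays (-1.89), and its value in the contrast with them was -0.29. Of 17 proteases and plasminogen genes tested, the membrane protease MMP14 (1.81 ± 0.43) and ADAMTS1 (1.71 ± 0.42) rose, and PLAU, the urokinase (-2.51, -2.24, -2.41, -1.41 and -2.30), and TIMP3 (-1.49 ± 0.11) fell. MMP1 stood at 0.04 ± 0.44 and was not bright.

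Among mesenchymal and epithelial markers, the mesenchymal cadherin CDH11 fell (-2.46, -2.59, -2.20, -3.16 and -2.46, mean -2.57 ± 0.36) and the keratin KRT81 rose (1.60 ± 0.39), of 21 tested. CDH1, the E-cadherin gene that CtBP proteins repress, was well above background on 0 of 5 arrays in both channels, so it gave no fold. VIM, the mesenchymal filament protein, stood at -0.17 ± 0.25. Of 17 xenobiotic genes tested, CYP1B1, a target of the aryl hydrocarbon receptor, rose (0.98, 1.61, 1.05, 2.91 and 1.78), as did ABCC3.

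CTBP2 and its partners were not called. CTBP2 had 0.32, 0.62, 0.13, 1.05 and 0.75, a mean of 0.57 ± 0.36 (1.49-fold, adjusted p = 0.0026), and CTBP1 had -0.13 ± 0.34, with probe means between -0.59 and 1.06. Of 21 tested corepressor genes, which include histone deacetylases, KDM1A and the ZEB repressors, 0 were called at the fold threshold, with 7 above and 6 below 0 at an adjusted p under 0.05. CTBP2 had -0.41 on the shCtBP2 arrays. The study reported a larger decrease of CtBP2 mRNA in these cells by real-time PCR against scrambled cells, a different method and control.

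The labelled cell line was checked against its markers. CD44, VIM and EGFR were well above background in both channels on all 5 arrays and PGR on 0 arrays, but ESR1 and ERBB2, which are low or absent in this line, also passed that mark on all 5 arrays, so a signal above background was not taken as a sign of expression. CD44 rose (1.40 ± 0.28). Of 22 markers of other cell types, 6 were bright. CD68, a lysosomal protein of macrophages that other cells also make, rose (2.01 ± 0.26), while the leukocyte gene PTPRC, ALB and LYZ were well above background on 0 arrays.

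The difference between the slides was seen in many called genes. In 250 of the 1262 bright called genes the means of the 2 slides lay over 1 log2 unit apart, and 726 passed 2.5-fold in the same direction on both slides. In 783 of them the slide 3 mean was further from 0. The 2 slides differed in the other arrays they held, and whether the cells of replicates 4 and 5 were treated or processed apart is not given in the labels. The part of the slide in these values was not tested.

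**Figure D5:**
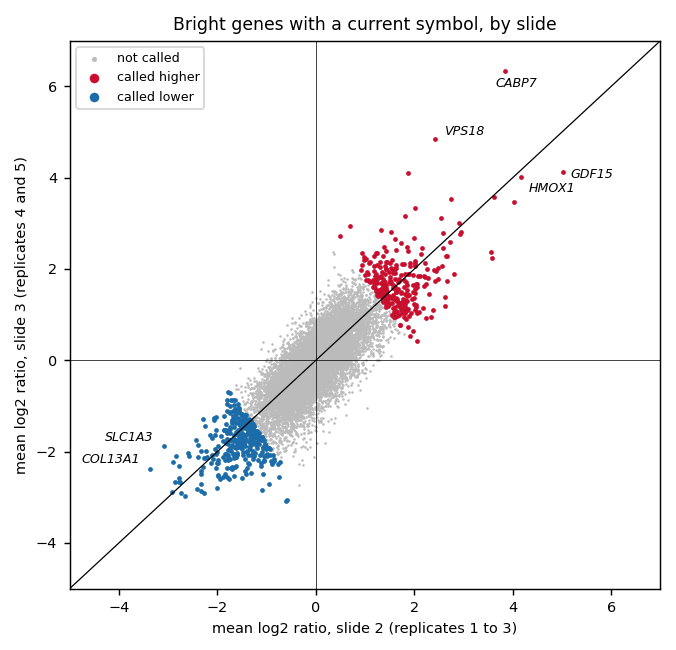
Mean log2 ratio of each bright gene with a current symbol on slide 2 (replicates 1 to 3, x axis) and slide 3 (replicates 4 and 5, y axis), with called genes in red and blue and the line of equal values. HMOX1 lay near the line (4.18 and 4.00), GDF15 lay below it (5.03 and 4.12), CABP7 and VPS18 lay above it (3.84 and 6.34, and 2.42 and 4.86), and called genes had the same sign on both slides.

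Some of these calls depended on background correction and dye normalisation, which were changed together. With normexp and loess, 27 of the 75 named calls lay under the fold threshold or missed the test, and all 27 kept their sign. Beside those given above, the value there was 0.86 for SLC43A2, -0.65 for ATP5MC3, 0.69 for GADD45G, 0.64 for TNFRSF10D, 0.70 for CXCL3, 0.57 for ICAM1, 0.75 for CDKN1A and -0.61 for FOS, each over 1.5 times nearer to 0. CEMIP (-1.61), FAM81A (-1.41) and LAMA4 (-1.34) also moved by over 1.5 times and stayed called. The value was 1.01 for HSPA1A, 1.15 for DNAJB2, 1.03 for ABCC3, -1.04 for IDH3G, 1.23 for MAP1LC3B, -1.19 for RPL15, -1.31 for POLE2, -1.13 for ECT2, 1.22 for TNFRSF10A, -1.04 for IFIT3 and 1.31 for MMP14.

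P4 differs from HIPP by a hydrazone in place of the oxime. The labels give no dose for either compound and the array comparisons share untreated cells as controls, so P4 values are set beside those of HIPP without a test. GDF15 had 4.66 ± 0.60 with HIPP and 3.92 ± 0.54 with P4, NUPR1 had 2.90 ± 0.15 and 2.85 ± 0.07, HMGCS1 had 2.68 ± 0.20 and 2.76 ± 0.20, and CTH had 2.00 ± 0.18 and 2.81 ± 0.23. Among the genes whose values lay further apart, HSPB8 had 3.09 ± 0.72 and 1.34 ± 0.50, MTF1 had 2.07 ± 0.25 and 0.67 ± 0.37, COL13A1 had -2.98 ± 0.84 and -0.52 ± 0.52, and PLAU had -2.17 ± 0.44 and -0.66 ± 0.27. The bright members of the stress response list had a median of 1.14 with HIPP and 0.88 with P4, and those of the TGF-beta list had -0.52 and -0.0039.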

How the data were processed

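RNA of treated (Cy5) and untreated (Cy3) cells was hybridised on Agilent whole human genome 4x44K arrays. The authors deposited, per spot, signal intensities that Feature Extraction 9.5 had background-subtracted and dye-normalised, with its flags. The series value table holds log10 ratios deposited by the authors, which differ from the ratio of the processed signals by up to 0.3 on some dim spots of the HIPP arrays and have medians of 0. Log2(Cy5/Cy3) of the processed signals was taken per spot, control spots and the 102 to 178 gene spots per HIPP array marked non-uniform or outlier were left out, and spots of a probe and probes of a gene were averaged. Gene names of 26811 probes were updated through RefSeq. Genes measured on at least 3 of 5 arrays of each treatment entered limma (version 3.58.1, R 4.3.3) with a coefficient per treatment. The lowest 11% by interquartile range over the 10 HIPP channel signals were left out of the Benjamini-Hochberg adjustment. This cut follows the study's methods. Those methods also removed genes under the fold threshold before the test, whereas here that threshold was applied after the adjustment. The fit was tested on simulated data. Named genes were the 10 highest and 10 lowest bright called genes with a current symbol, key genes of the lists, and up to 2 called bright members per list. A few genes that these rules name are not reported here, although counts and list medians include them. Further list members were named after their values were seen. The members and lists were chosen with earlier results of these data known. The slide numbers name the physical slides in the scanner files. The number of arrays limits the precision. Alternatives covered background correction, normalisation, probe choice, filters, slide, replicate block, the contrast with shCtBP2, the methods' Student's test and left-out replicates.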

Additional observations from a re-analysis of the deposited data

Results flagged for a closer look

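In 12 of 136 sets of 5 array values tested (the named genes and the list medians), 1 array lay far from the rest, where chance alone flags about 1 in 20. In 10 of the 12 that array was replicate 4. It was nearest to 0 for COL13A1 (-1.52), F13A1 (-2.27), INHBB (-0.93) and PLAU (-1.41), which fell, and lowest for DNAJB2 (0.62), TXNIP (0.26), GABARAPL1 (1.25), GADD45A (0.27) and LOX (1.57), which rose, and it was the highest for CCND1 (1.24). CCNB1 was nearest to 0 on replicate 1 (-0.41), and IFIT3 was lowest on replicate 2 (-2.03). Replicate 4 also gave the lowest correlation with another HIPP array (0.50, with replicate 1). The part of this array in these values was not tested beyond the values without it.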

How the results depend on the processing

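Of 75 called named genes, 29 were called under each of the 21 alternatives that refit single genes, and INHBB alone turned its sign, to 2.13 in the contrast with the shCtBP2 arrays. The fold threshold, background correction and scaling moved the counts. Normexp with an offset of 50 and loess gave 151 genes higher and 129 lower (147 and 127 bright), and with an offset of 0, chosen after seeing the data, 236 and 214 (223 and 194 bright). Mean signals centred on the median gave 143 and 426 (138 bright higher), and not centred, also chosen after seeing the data, 41 and 1577 (40 and 1546 bright). Slide 3 alone, with 2 arrays, gave 1600 and 1623 (1154 and 1072 bright). With only bright probes averaged, 617 genes were lower, since no dim gene can be called there. At 1.5-fold there were 4455 and 4527 (3217 and 3336 bright), and with no fold threshold 6858 and 6591 (5162 and 5304 bright). For the other changes the cause was not tested.

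Without each replicate in turn, 823 to 1083 genes were called higher and 908 to 1148 lower, or 538 to 748 and 530 to 731 of the bright genes. Named calls were lost for CDKN1A without replicate 1 (1.27) or 3 (1.27), MAP1LC3B without replicate 1 (1.24), 2 (1.32) or 3 (1.29), HSPA1A without replicate 2 (1.29), ABCC3 without replicate 2 (1.32) or 4 (1.14), RPL15 without replicate 2 (-1.29), 3 (-1.30) or 5 (-1.32), TNFRSF10A without replicate 4 (1.28) or 5 (1.31), JUND without replicate 4 (1.29), CD44 without replicate 5 (1.30), and FOS without replicate 2 (-1.09), 3 (-1.64) or 4 (-1.37). DDIT3 was called without replicate 4 (1.59) or 5 (1.39). Deviations of same-numbered HIPP and other arrays correlated between -0.03 and 0.47, so some of these arrays shared deviations. Whether the replicate numbers pair the arrays was not tested further. With the replicate block 945 genes were called higher and 997 lower (647 and 615 bright), and no named call changed. In the contrast with the shCtBP2 arrays, ATF4 (1.20), GADD45G (1.21), IDH3G (-1.26), ATP5MC3 (-1.27), ECT2 (-1.22), ICAM1 (0.58), JUND (0.56), IFIT3 (-0.88) and LAMA4 (-0.29) also kept their sign below the fold threshold. So did CDKN1A (0.97), MAP1LC3B (1.06) and CD44 (1.27). Of the 20 list medians at least 0.25 from 0, 0 changed sign under any alternative other than uncentred mean signals, where 8 did. Of all 39 list medians, however, 39 moved by more than their SD over arrays with uncentred mean signals, 24 with centred mean signals, 17 in the contrast with the shCtBP2 arrays, 13 within slide 3 and 9 with normexp and an offset of 50. Signals near background limit 681 of the called genes, which were not bright.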
